A study of Homo sapiens with 12 samples.

Results

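The genes described here encode 10 proteins of the lysosomal membrane: the glycoproteins LAMP1, LAMP2 and SCARB2, the exporters SLC17A5, NPC1 and CTNS, the cation channels MCOLN1 and TPCN1, and the chloride-proton exchanger CLCN7 with its partner OSTM1. They were taken by symbol from 60649 gene IDs in a table of read counts scaled by library, and each of the 10 symbols matched 1 ID. RNA was sequenced from cells of MDA-MB-231, an established triple-negative breast cancer line. There were 4 groups of 3 libraries, 12 in all. Double KD cells carried short hairpin RNAs against SIRT1 and IGF2BP2, SIRT1 KD and IGF2BP2 KD cells carried a hairpin against 1 of these genes, and control cells carried a sham hairpin. All groups, control included, had been infected with lentivirus packaged in HEK-293T cells, an embryonic kidney line, with Polybrene at 8 µg/mL, and kept in RPMI-1640 with 10% serum and puromycin at 2.0 µg/mL. The series' text says that each condition was run on 3 independent occasions. The labels do not say whether these were separate infections, and p-values measure only how far these libraries spread.

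Lysosomes break down material with acid hydrolases, and their membrane has to resist those enzymes, let the products out and hold the ion gradients that keep the lumen acidic. LAMP1 and LAMP2, heavily glycosylated, make up much of the protein of that membrane, transporters return sugars, amino acids and cholesterol to the cytosol, and channels release calcium and other ions. Loss of several of these proteins causes storage disease, as with NPC1 in Niemann-Pick disease type C and CTNS in cystinosis. The proteins targeted in the study are SIRT1, a deacetylase that uses NAD, and IGF2BP2, which binds RNA and stabilises many transcripts.

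Each hairpin's target was lower in the libraries that carried it. Normalised counts of SIRT1 were 380 to 436 in double KD and 496 to 547 in SIRT1 KD libraries, against 799 to 863 in control. Those of IGF2BP2 were 715 to 992 in double KD and 709 to 841 in IGF2BP2 KD libraries, against 3045 to 3127 in control. Of the line's markers, the mesenchymal genes VIM (17403 to 28125) and AXL (43553 to 59216) were high, the oestrogen receptor ESR1 was at 1.0 to 7.7 and the leukocyte gene PTPRC at 5.7 or less. Of the epithelial genes, CDH1 was at 0.9 to 24.1 and EPCAM was present at 134 to 243. Recovered reads numbered 19522606 to 22509142 in 11 libraries and 15243152 in double KD replicate 2. That library also stood apart in mitochondrially encoded reads, 1.18% against 1.99% to 2.57% elsewhere, and in the SD of its log2 values to its partners, 0.438 against 0.233 to 0.342. The log2 fold changes of the 10 genes in double KD cells against control are given below with it and, together, without it. For double KD against each single knockdown the called values are given both ways, with some of those not called. Each of the 10 genes had 283 to 11957 recovered reads in every library, and all 10 passed the filter on low counts.

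Lysosomal membrane genes moved in both directions in SIRT1 KD cells. Of the 10 genes, 3 rose and 5 fell against control at an adjusted p under 0.05 (limma across 17576 genes, Benjamini-Hochberg), and the libraries of the groups did not overlap for 9. Over all tested genes 28.6% were called in this comparison, 12.9% higher and 15.7% lower, and the groups did not overlap for 51%. SLC17A5, NPC1 and CLCN7 rose, and LAMP1, LAMP2, CTNS, TPCN1 and OSTM1 fell. The median log2 fold change of the 10 genes was -0.16, beside -0.0018 for all genes. The shares over all genes include genes with fewer reads than the 10, which had 283 or more in every library. The 10 genes, and the other lysosomal membrane genes below, were chosen with earlier results of these data known. Their counts beside the shares over all genes are therefore a description, here and in the other comparisons, and not a test of the set. Without double KD replicate 2 in the fit 9 of the 10 were called, beside 7017 of 18112 genes.

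In double KD cells 3 of the 10 genes rose and 4 fell against control, and the groups did not overlap for 9. The background was 34.2% of all genes called, 16.7% higher and 17.5% lower, with 42.2% not overlapping. LAMP1, LAMP2 and TPCN1 fell and SLC17A5 and CLCN7 rose, each also called in that direction in SIRT1 KD cells. NPC1 fell and OSTM1 rose, each called the other way in SIRT1 KD cells. The median was -0.12, beside 0.0057 for all genes. The 3 comparisons with control share the control libraries.

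In IGF2BP2 KD cells 1 of the 10 genes rose, OSTM1, and 1 fell, NPC1, and the groups did not overlap for 5. Over all genes 16.3% were called, 6.86% higher and 9.39% lower, and 41.3% did not overlap. The median was 0.07, beside -0.0037. The count of called genes was 1 without control replicate 1, without IGF2BP2 KD replicate 1 or without IGF2BP2 KD replicate 3, and 3 without double KD replicate 2. Over all genes, leaving out double KD replicate 2 raised the number called in this comparison to 5028, against 2857 with all libraries.

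**Figure D1:**
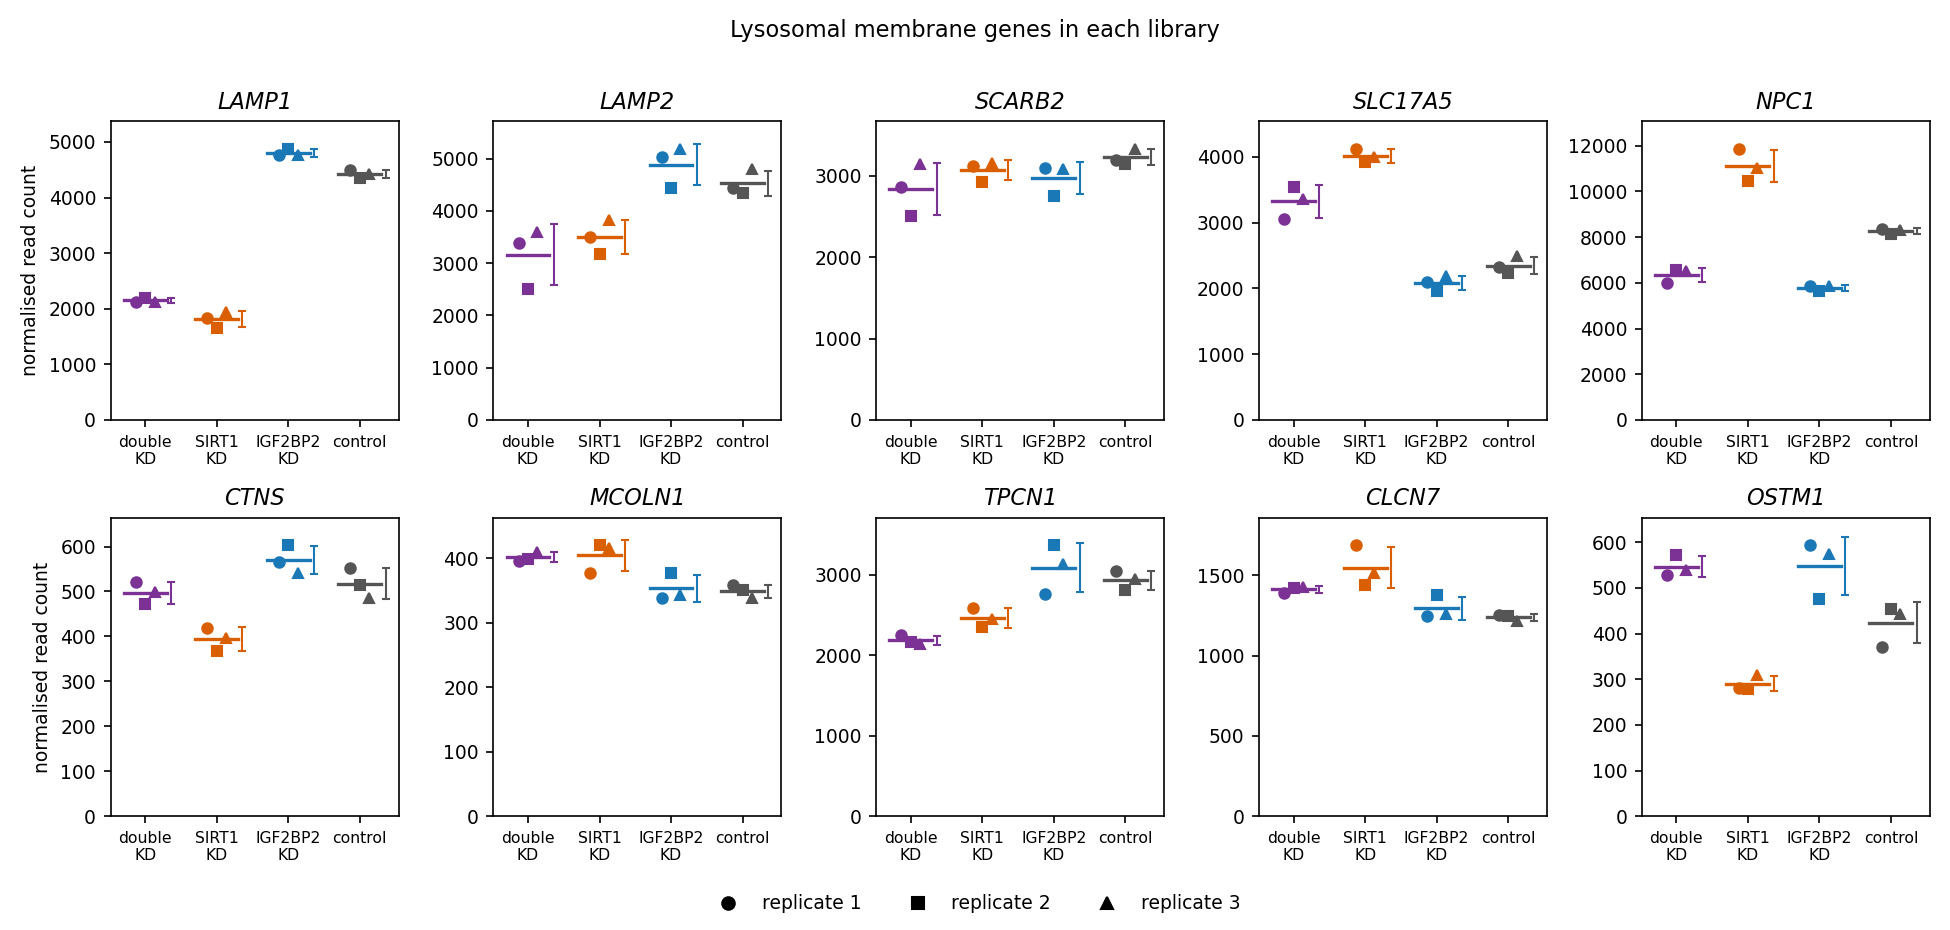
Normalised read count (linear axis from 0) of each gene in the 12 libraries, by group, with the marker shape giving the replicate, a bar for the mean and a whisker for the SD of 3 libraries. LAMP1 lies at 1653 to 2197 in all double KD and SIRT1 KD libraries and at 4353 or more in all others, and NPC1 is at 10445 or more in SIRT1 KD libraries and at 8366 or less in all others.

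Promoter sequences are shown because a promoter element is known for a network of lysosomal genes. Sequences of the 3′ UTR are shown because a pair of words there has been tied to low values in these SIRT1 KD libraries. The CLEAR element is an E-box, CACGTG, in longer flanks, spelled by GTCAC followed by its reverse complement, and is bound by TFEB, TFE3 and MITF. Promoter windows (250 bases before to 50 after the start, RefSeq, build GRCh38.p14) were found for all of the genes but LAMP2, and a nested set of words was searched on both strands. CACGTG occurs in 7.26% of 35116 such windows and in those of LAMP1, MCOLN1 and CLCN7. TCACGTG, which contains it, occurs in 3.71% and in the same 3 genes, TCACGTGA in 0.980% and in LAMP1 and MCOLN1, and the full element in 0.353% and in MCOLN1. Stretches around the matches nearest the start are given with the letters that match the element outward from the E-box in capitals. LAMP1 holds 4 more E-boxes farther upstream.
LAMP1, chr13:113297199-113297228, plus strand, core at -28: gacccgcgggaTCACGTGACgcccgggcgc
LAMP1, chr13:113297226-113297255, plus strand, core at -1: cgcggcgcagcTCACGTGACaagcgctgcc
MCOLN1, chr19:7522571-7522600, plus strand, core at -41: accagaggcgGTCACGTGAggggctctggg
MCOLN1, chr19:7522598-7522627, plus strand, core at -14: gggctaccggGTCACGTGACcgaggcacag
CLCN7, chr16:1475058-1475087, minus strand, core at -47: gccgtcgctcaTCACGTGgccccgtcgcgc
CLCN7, chr16:1475038-1475067, minus strand, core at -27: cccgtcgcgcGTCACGTGgccgccggcgcg
Genes with these letters did not move one way: in SIRT1 KD cells LAMP1 fell, CLCN7 rose and MCOLN1 was not called.

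The words CTCAGAT and TCAGATA, which overlap and join as CTCAGATA, were picked in earlier work on these files because genes with them in the 3′ UTR were low in SIRT1 KD cells, so their match to that comparison is a description and supports nothing. At least 1 of these words, on the transcript strand, lies in the 3′ UTR of the principal GENCODE 29 transcript of LAMP1, CTNS, TPCN1 and OSTM1, 4 of 10, against 15.9% of 18861 genes. Over any transcript of the basic set LAMP2 joins them, 5 of 10, against 19.4% of 19114. The 5 genes are those that fell in SIRT1 KD cells, the comparison from which the words were picked, and the principal transcript of LAMP2 holds none. Loss of SIRT1 and other effects of the hairpin against it cannot be told apart in these libraries, and neither was tested as the cause of these falls. In double KD cells LAMP1, LAMP2 and TPCN1 fell, CTNS was not called and OSTM1 rose. Sites are in the last exon, on GRCh38, with the words in capitals.
LAMP1, chr13:113322941-113322969, plus strand, exon 9 of 9: tctttactgcaCTCAGATttaagccttac
CTNS, chr17:3661089-3661117, plus strand, exon 13 of 13: acctccaccttCTCAGATtagccccatct
CTNS, chr17:3661300-3661328, plus strand, exon 13 of 13: tgttcaggagcCTCAGATAagtatttgta
TPCN1, chr12:113298290-113298318, plus strand, exon 28 of 28: atgtgatctagCTCAGATgccctctcatc
OSTM1, chr6:108042128-108042156, minus strand, exon 6 of 6: ctggctgaacaTCAGATAttttaaagtgt
OSTM1, chr6:108042305-108042333, minus strand, exon 6 of 6: tagaaataacaTCAGATAtattttttctt

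Among the membrane glycoproteins LAMP1 had the largest change of the 10 genes. LAMP1 (ENSG00000185896.11, chromosome 13, 113297241 to 113323672, plus strand) was at 2128, 2197 and 2128 normalised counts in double KD replicates 1 to 3, at 1842, 1653 and 1948 in SIRT1 KD and at 4757, 4881 and 4773 in IGF2BP2 KD, against 4493, 4353 and 4418 in control. Every library with a SIRT1 hairpin lay below every library without one, and every IGF2BP2 KD library lay above every control library. The gene fell to 48.7% of control in double KD cells (log2 fold change -1.04, 95% interval -1.17 to -0.90, limma adjusted p = 8.2e-10) and to 41.0% in SIRT1 KD cells (-1.29, -1.42 to -1.15, adjusted p = 1.8e-10). IGF2BP2 KD cells were at 109% of control, which was not called (0.12, adjusted p = 0.232). In 1 alternative, with only the IGF2BP2 KD and control libraries, that value was called (0.12, limma adjusted p = 0.0412). Without double KD replicate 2 in the fit it was not (0.0993).

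LAMP1 fell less with both hairpins than with the SIRT1 hairpin alone. LAMP1 averaged 2151 ± 39.9 normalised counts in double KD cells and 1814 ± 149 in SIRT1 KD cells (SD, n = 3 each), a log2 difference of 0.25 (95% interval 0.11 to 0.38, limma adjusted p = 0.00884). Without SIRT1 KD replicate 2, the lowest library, the difference was 0.18 and not called (adjusted p = 0.0660). It was also not called with only these groups in the fit (0.0759) or on the authors' deposited log2 ratios (0.171). Against IGF2BP2 KD cells double KD cells were lower by -1.16 (adjusted p = 1.1e-09).

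LAMP2, the other major glycoprotein of the membrane, a splice form of which is the receptor of chaperone-mediated autophagy, fell in the same groups by less. LAMP2 (ENSG00000005893.16, chromosome X, 120427827 to 120469365, minus strand) was at 3388, 2503 and 3606 normalised counts in double KD, 3506, 3175 and 3836 in SIRT1 KD and 5025, 4446 and 5195 in IGF2BP2 KD, against 4445, 4347 and 4803 in control. Double KD and SIRT1 KD libraries lay below all control libraries, IGF2BP2 KD overlapped control, and double KD replicate 2 was the lowest of the 12. The log2 fold change was -0.53 in double KD cells (95% interval -0.77 to -0.30, limma adjusted p = 0.0013), 69.9% of control, and -0.37 without double KD replicate 2 (adjusted p = 2.7e-05). In SIRT1 KD cells LAMP2 fell to 77.4% (-0.37, -0.61 to -0.14, adjusted p = 0.0182). That call was lost without control replicate 3 (0.0783) or SIRT1 KD replicate 2 (0.0930), with no filter on low counts (0.110), without the variance trend and robust settings (0.0676) and on the deposited ratios (0.0675). LAMP2 was at 108% of control in IGF2BP2 KD cells (0.11, adjusted p = 0.585). Its splice forms cannot be told apart in counts per gene.

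SCARB2 encodes LIMP-2, which carries the hydrolase glucocerebrosidase to lysosomes, and was not called in any comparison. SCARB2 (ENSG00000138760.11, chromosome 4, 76158733 to 76234536, minus strand) was at 2864, 2507 and 3141 normalised counts in double KD, 3118, 2925 and 3151 in SIRT1 KD and 3090, 2750 and 3085 in IGF2BP2 KD libraries, against 3197, 3143.5 and 3332 in control. All double KD and IGF2BP2 KD libraries lay below all control libraries, and SIRT1 KD overlapped control. The log2 fold change was -0.19 (95% interval -0.35 to -0.03, limma adjusted p = 0.0672) in double KD, -0.07 (-0.24 to 0.09, adjusted p = 0.531) in SIRT1 KD and -0.12 (-0.28 to 0.04, adjusted p = 0.343) in IGF2BP2 KD cells. The double KD value was -0.10 and not called without double KD replicate 2 (adjusted p = 0.194), and -0.27 and called without double KD replicate 3 (adjusted p = 0.0135).

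**Figure D2:**
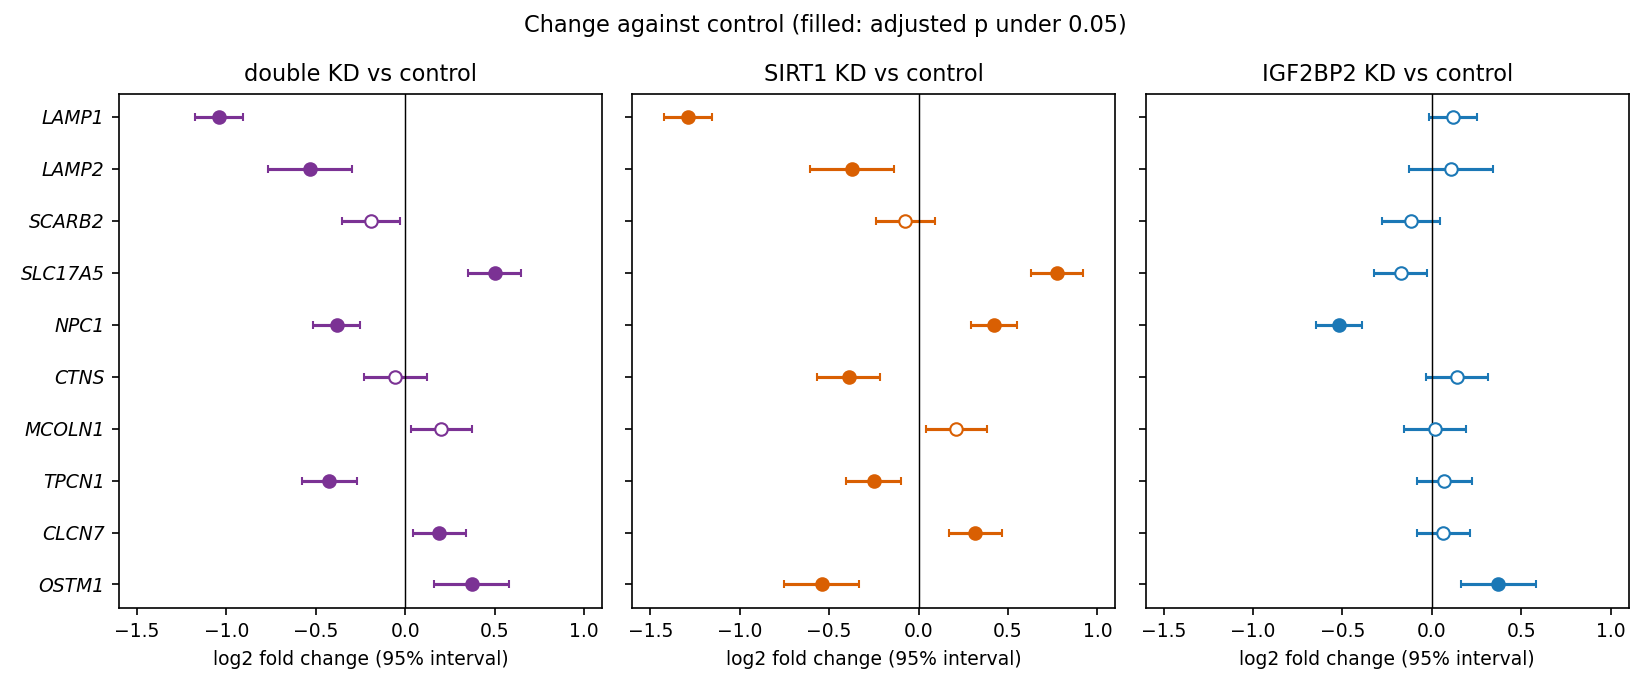
Log2 fold change against control with its 95% interval (limma, 3 libraries per group) for the 10 genes in double KD, SIRT1 KD and IGF2BP2 KD cells, with filled circles for adjusted p under 0.05. LAMP1 lies at -1.04, -1.29 and 0.12 in the 3 panels, NPC1 at -0.38, 0.42 and -0.52, and OSTM1 at 0.37, -0.54 and 0.37.

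Among the exporters, the sialic acid carrier SLC17A5 (sialin) was higher wherever the SIRT1 hairpin was present. SLC17A5 (ENSG00000119899.13, chromosome 6, 73593379 to 73654155, minus strand) was at 3058, 3548 and 3363 normalised counts in double KD, 4127, 3917 and 3991 in SIRT1 KD and 2097, 1962 and 2182 in IGF2BP2 KD, against 2321, 2231 and 2493 in control. The 4 groups did not overlap: SIRT1 KD was highest, then double KD, then control, then IGF2BP2 KD. SLC17A5 rose to 141% of control in double KD cells (log2 fold change 0.50, 95% interval 0.35 to 0.65, limma adjusted p = 1.9e-05) and to 171% in SIRT1 KD cells (0.77, 0.63 to 0.92, adjusted p = 1.6e-07). It was at 88.6% in IGF2BP2 KD cells and not called (-0.17, adjusted p = 0.0992). Without double KD replicate 2 in the fit the IGF2BP2 KD value was called at the same size (adjusted p = 0.0146), as it was with only the IGF2BP2 KD and control libraries (0.0184).

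Double KD cells had less SLC17A5 than SIRT1 KD cells, at 3323 ± 248 against 4012 ± 106 normalised counts (SD, n = 3 each). The log2 difference was -0.27 (95% interval -0.42 to -0.13, limma adjusted p = 0.00812). The double KD minus IGF2BP2 KD difference, 0.67 (adjusted p = 9.6e-07), lay beside a SIRT1 KD minus control difference of 0.77. The test between these differences, the interaction, gave -0.10 (95% interval -0.31 to 0.11, adjusted p = 0.647).

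NPC1, which passes cholesterol out of the lysosome, went in opposite directions with the single hairpins. NPC1 (ENSG00000141458.13, chromosome 18, 23506184 to 23586898, minus strand) was at 5977, 6553 and 6509.8 normalised counts in double KD, 11873, 10445 and 11007 in SIRT1 KD and 5842, 5639.8 and 5842 in IGF2BP2 KD libraries, against 8366, 8137 and 8328 in control. Every SIRT1 KD library lay above control, and every double KD and IGF2BP2 KD library below it. NPC1 fell to 76.7% of control in double KD cells (log2 fold change -0.38, 95% interval -0.51 to -0.25, limma adjusted p = 9.0e-05), rose to 134% in SIRT1 KD cells (0.42, 0.29 to 0.55, adjusted p = 4.4e-05) and fell to 69.8% in IGF2BP2 KD cells (-0.52, -0.65 to -0.39, adjusted p = 1.2e-05).

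With both hairpins NPC1 lay near IGF2BP2 KD cells. NPC1 averaged 6347 ± 321 normalised counts in double KD and 11108 ± 719 in SIRT1 KD cells, a log2 difference of -0.81 (95% interval -0.94 to -0.68, limma adjusted p = 5.1e-08). Against IGF2BP2 KD cells, at 5774 ± 117, the difference was 0.14 and not called (0.0052 to 0.27, adjusted p = 0.107), although the libraries did not overlap. Without double KD replicate 1 it was 0.18 and called (adjusted p = 0.0347). The interaction was -0.29 (-0.47 to -0.10), so double KD cells lay below the sum of the single changes, and was not called (adjusted p = 0.0847). It was called without double KD replicate 2 (-0.31, limma adjusted p = 0.00777) and with DESeq2 (-0.30, adjusted p = 0.0126). Upper-quartile scaling also called it (-0.34, limma adjusted p = 0.0120). Over all genes those fits called 1765, 926 and 635 interactions, against 503 in the fit used for calls here. RMC1 lies on the opposite strand across part of NPC1 and was at 542 to 809 normalised counts.

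CTNS encodes cystinosin, the exporter of cystine. CTNS (ENSG00000040531.16, chromosome 17, 3636468 to 3661542, plus strand) was at 521, 472 and 499.8 normalised counts in double KD, 419, 367 and 397 in SIRT1 KD and 566, 604 and 541 in IGF2BP2 KD libraries, against 553, 515 and 485 in control. The SIRT1 KD libraries were the 3 lowest of all, and double KD and IGF2BP2 KD overlapped control. CTNS fell to 76.2% of control in SIRT1 KD cells (log2 fold change -0.39, 95% interval -0.57 to -0.22, limma adjusted p = 0.00157). It was at 96.2% in double KD cells (-0.06, adjusted p = 0.660) and 110% in IGF2BP2 KD cells (0.14, adjusted p = 0.290), and neither was called. Double KD cells had more CTNS than SIRT1 KD cells (0.34, 0.16 to 0.51, adjusted p = 0.00704). The antisense gene CTNS-AS1 was at 23.0 to 57.6 normalised counts.

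The cation channels differed from each other. MCOLN1 encodes TRPML1, a calcium-permeable channel, and was the lower of the pair per length. MCOLN1 (ENSG00000090674.16, chromosome 19, 7522626 to 7534009, plus strand) was at 395, 399 and 410.1 normalised counts in double KD, 377, 421 and 416 in SIRT1 KD and 339, 378 and 343 in IGF2BP2 KD libraries, against 358, 350.2 and 339 in control. All double KD and SIRT1 KD libraries lay above all control libraries, and IGF2BP2 KD overlapped control. The log2 fold changes were 0.20 (95% interval 0.03 to 0.37, limma adjusted p = 0.0652) in double KD, 0.21 (0.04 to 0.38, adjusted p = 0.0615) in SIRT1 KD and 0.02 (-0.16 to 0.19, adjusted p = 0.925) in IGF2BP2 KD cells, none of them called. The SIRT1 KD value was called in 5 alternatives, among them edgeR (adjusted p = 0.0482) and the fit without double KD replicate 2 (0.0254). The double KD value was called in 2, without the variance trend and robust settings (limma adjusted p = 0.0444) and on the deposited ratios (0.0158). PNPLA6, at 3039 to 4195 normalised counts, overlaps the gene on the same strand.

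TPCN1, an endolysosomal cation channel, fell with the SIRT1 hairpin. TPCN1 (ENSG00000186815.13, chromosome 12, 113221050 to 113298585, plus strand) was at 2250.2, 2160.2 and 2147 normalised counts in double KD, 2591, 2349.6 and 2455 in SIRT1 KD and 2763, 3373 and 3132 in IGF2BP2 KD, against 3046, 2810.1 and 2947 in control. Double KD libraries were the 3 lowest, SIRT1 KD libraries the next 3, and IGF2BP2 KD overlapped control. TPCN1 fell to 74.5% of control in double KD cells (log2 fold change -0.42, 95% interval -0.58 to -0.27, limma adjusted p = 1.6e-04) and to 84.0% in SIRT1 KD cells (-0.25, -0.40 to -0.10, adjusted p = 0.0135). The SIRT1 KD call was lost without control replicate 1 (0.0700) or SIRT1 KD replicate 2 (0.0716). IGF2BP2 KD cells were at 105% (0.07, adjusted p = 0.583). Double KD cells were not called lower than SIRT1 KD cells (-0.17, -0.32 to -0.02, adjusted p = 0.0977).

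CLCN7 and OSTM1 encode the exchanger of chloride for protons, CLC-7, and the subunit it needs to be stable, and their loss causes osteopetrosis. The pair moved in opposite directions in SIRT1 KD cells. CLCN7 (ENSG00000103249.18, chromosome 16, 1444934 to 1475580, minus strand) was at 1387, 1423 and 1428 normalised counts in double KD, 1689, 1438 and 1513 in SIRT1 KD and 1247, 1375 and 1260.5 in IGF2BP2 KD libraries, against 1255, 1244 and 1214 in control. All double KD and SIRT1 KD libraries lay above all control libraries, and IGF2BP2 KD overlapped control. CLCN7 rose to 125% of control in SIRT1 KD cells (log2 fold change 0.32, 95% interval 0.17 to 0.47, limma adjusted p = 0.00203) and to 114% in double KD cells (0.19, 0.04 to 0.34, adjusted p = 0.0428). IGF2BP2 KD cells held it at 105% (0.06, adjusted p = 0.614). The double KD call is at the edge of the threshold and was lost in 11 of 22 alternatives. Among these were the fits without control replicate 1 (0.0868), 2 (0.0943) or 3 (0.134), SIRT1 KD replicate 3 (0.0616), IGF2BP2 KD replicate 1 (0.0517) or 3 (0.0600), or double KD replicate 3 (0.0904).

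OSTM1 (ENSG00000081087.15, chromosome 6, 108041409 to 108165854, minus strand) was at 528, 572 and 538 normalised counts in double KD, 281, 279.5 and 308 in SIRT1 KD and 594, 475 and 573 in IGF2BP2 KD libraries, against 372, 454 and 444 in control. The SIRT1 KD libraries were the 3 lowest, all double KD and IGF2BP2 KD libraries lay above all control libraries, and double KD overlapped IGF2BP2 KD. OSTM1 rose to 129% of control in double KD cells (log2 fold change 0.37, 95% interval 0.16 to 0.58, limma adjusted p = 0.00702), fell to 68.5% in SIRT1 KD cells (-0.54, -0.75 to -0.33, adjusted p = 4.3e-04) and rose to 129% in IGF2BP2 KD cells (0.37, 0.16 to 0.58, adjusted p = 0.0152). The double KD call was lost without control replicate 1 (adjusted p = 0.0591). The IGF2BP2 KD call was lost without control replicate 1 (0.106), IGF2BP2 KD replicate 1 (0.0881) or IGF2BP2 KD replicate 3 (0.0779).

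OSTM1 was the only one of the 10 genes called for the interaction, which asks whether the IGF2BP2 hairpin had the same effect with the SIRT1 hairpin present (double KD against SIRT1 KD) as without it (IGF2BP2 KD against control). Double KD cells lay above SIRT1 KD cells by 0.91 on the log2 scale (95% interval 0.70 to 1.12, limma adjusted p = 3.0e-06), whereas IGF2BP2 KD cells were above control by 0.37. The interaction was 0.54 (0.25 to 0.84, SE 0.141, adjusted p = 0.0463), beside 2.86% of all genes called, 1.7% above and 1.16% below the sum of the single changes. Double KD and IGF2BP2 KD cells did not differ by a called amount (0.0020, -0.21 to 0.21, adjusted p = 0.990). SIRT1 itself was lower in every double KD library than in every SIRT1 KD library, and the interaction does not allow for that. The interaction call was lost in 13 of 21 alternatives, at values of 0.44 to 0.59 and adjusted p of 0.0518 to 0.149. Among these were the fits without control replicate 2 or 3, any SIRT1 KD replicate, IGF2BP2 KD replicate 2 or 3, or double KD replicate 3, in which none of the 10 genes was called. Without double KD replicate 2 the called genes were OSTM1 and NPC1, beside 1765 of 18112 genes. With all libraries 3 of the 10 genes had an unadjusted limma p under 0.05, beside 3180 of all 17576. For the interaction edgeR called 1 of the 10 and 583 of all genes, and DESeq2 called 2 and 926. The median interaction of the 10 genes was -0.06, beside 0.018 for all genes.

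The double KD cells were also compared with each single knockdown. SIRT1 itself was lower in every double KD library than in every SIRT1 KD library. The comparison with SIRT1 KD cells therefore does not isolate the IGF2BP2 hairpin. Against SIRT1 KD cells LAMP1, CTNS and OSTM1 were called higher and SLC17A5 and NPC1 lower, 3 and 2 of the 10 genes, with 7 not overlapping. Over all genes 22.6% were called, 11.9% higher and 10.7% lower, and 33.2% did not overlap. Each of these 5 genes lay between SIRT1 KD and control levels in double KD cells, except NPC1 and OSTM1, which lay beyond control. Against IGF2BP2 KD cells SLC17A5 was called higher and LAMP1, LAMP2 and TPCN1 lower, 1 and 3 of the 10 genes, with 8 not overlapping, beside 31.6% of all genes called, 16.4% higher and 15.2% lower, and 38.4% not overlapping. LAMP2 fell by 0.64 (limma adjusted p = 3.2e-04) and TPCN1 by 0.49 (adjusted p = 4.3e-05) in that comparison.

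Without double KD replicate 2 the same genes were called in these comparisons, 7 against control, 5 against SIRT1 KD and 4 against IGF2BP2 KD. Over the 18112 genes tested in that fit, 7070, 5132 and 6451 were called in the same order. Against control the log2 fold changes in double KD cells were then -1.05 for LAMP1, -0.37 for LAMP2, -0.10 for SCARB2, 0.45 for SLC17A5, -0.41 for NPC1, -0.02 for CTNS, 0.21 for MCOLN1, -0.42 for TPCN1, 0.19 for CLCN7 and 0.34 for OSTM1. Against SIRT1 KD cells the called values were 0.23 for LAMP1, -0.32 for SLC17A5, -0.83 for NPC1, 0.37 for CTNS and 0.88 for OSTM1, and TPCN1 was at -0.16. Against IGF2BP2 KD cells they were -1.17 for LAMP1, -0.48 for LAMP2, 0.63 for SLC17A5 and -0.49 for TPCN1, with NPC1 at 0.11 and OSTM1 at -0.03. LAMP2 moved most, with a double KD minus SIRT1 KD difference of -0.00015 in place of -0.16.

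**Figure D3:**
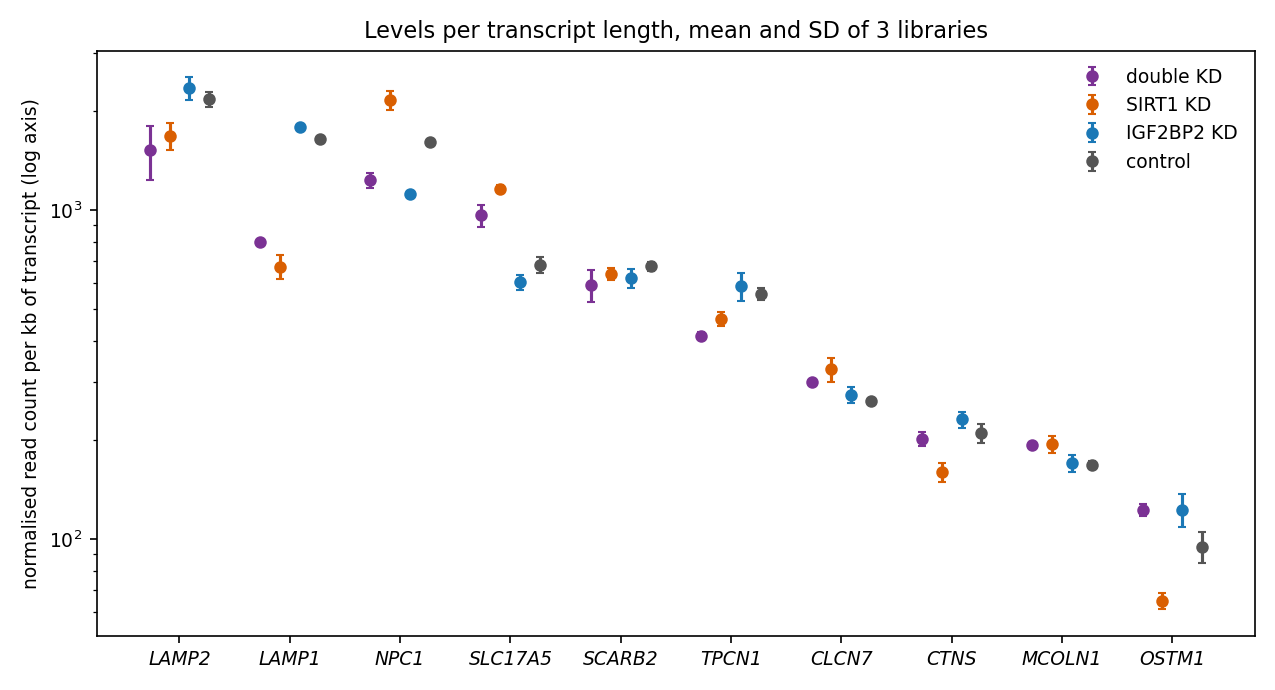
Normalised read count per kb of the principal transcript (log axis) of the 10 genes, as the mean and SD of 3 libraries in double KD, SIRT1 KD, IGF2BP2 KD and control cells. NPC1 leads in SIRT1 KD cells at 2154, LAMP2 leads in control cells at 2169, and OSTM1 is last in all groups on this length.

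Set on a scale per length of the principal transcript, the level of the 10 genes ran over more than an order of magnitude. Levels are normalised counts per 1000 bases of the principal GENCODE 29 transcript, as mean ± SD of 3 libraries. In double KD cells LAMP2 (1515 ± 279) led and overlapped NPC1 (1231 ± 62.2), and SLC17A5 (962 ± 71.6) lay above LAMP1 (797 ± 14.8). In SIRT1 KD cells NPC1 led at 2154 ± 139.5, LAMP2 (1678 ± 158) and SLC17A5 (1161 ± 30.8) came next, and LAMP1 at 672 ± 55.3 overlapped SCARB2 at 639.6 ± 25.4. In IGF2BP2 KD cells LAMP2 (2340.1 ± 188) and LAMP1 (1780 ± 25.1) came first, with NPC1 at 1120 ± 22.6, and SCARB2, SLC17A5 and TPCN1 overlapped. In control cells LAMP2 led at 2169 ± 115, and LAMP1 (1638 ± 26.0) and NPC1 (1605 ± 23.8) followed, overlapping each other. There SLC17A5 (680 ± 38.5) and SCARB2 (673 ± 20.3) overlapped as well, then came TPCN1 (556 ± 22.5), CLCN7 (262 ± 4.51), CTNS (209 ± 13.7) and MCOLN1 (168 ± 4.75). On this length OSTM1 was last in every group, at 122 ± 5.22 in double KD, 64.8 ± 3.65 in SIRT1 KD and 123 ± 14.2 in IGF2BP2 KD cells, against 94.7 ± 10.0 in control cells. The order depends on the length used. Over the union of all annotated exons SLC17A5 led in double KD cells at 922 ± 68.7, above NPC1 (628 ± 31.8) and LAMP2 (573 ± 106), and in SIRT1 KD cells at 1113 ± 29.5, within the spread of NPC1 (1100 ± 71.2). By that length LAMP2, NPC1 and LAMP1 were at 820.1, 819 and 770.4 in control cells. MCOLN1 was then at 101.5 in double KD and 89.3 in IGF2BP2 KD cells, below OSTM1 at 102.5 and 103 there.

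**Figure D4:**
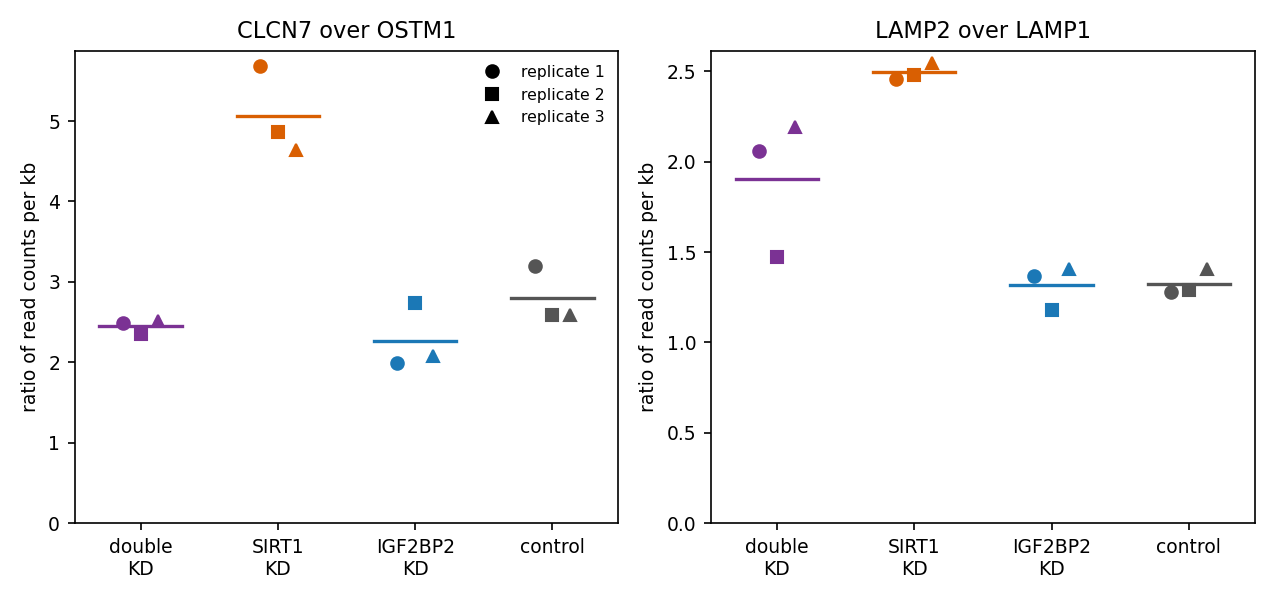
Ratio of normalised counts per kb in each library (linear axis from 0) for CLCN7 over OSTM1 and LAMP2 over LAMP1, by group, with a bar for the mean and the marker shape for the replicate. Both ratios are highest in SIRT1 KD libraries, at 4.64 to 5.69 and 2.46 to 2.54.

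The ratios of partner genes were highest in SIRT1 KD libraries. The ratio of CLCN7 to OSTM1, per transcript length, was 2.49, 2.35 and 2.51 in double KD libraries, 5.69, 4.87 and 4.64 in SIRT1 KD and 1.99, 2.74 and 2.08 in IGF2BP2 KD, against 3.20, 2.59 and 2.59 in control. SIRT1 KD libraries lay above all others, double KD lay below all control libraries, and IGF2BP2 KD overlapped control. The ratio of LAMP2 to LAMP1 was 2.06, 1.47 and 2.19 in double KD, 2.46, 2.48 and 2.54 in SIRT1 KD and 1.36, 1.18 and 1.41 in IGF2BP2 KD, against 1.28, 1.29 and 1.40 in control. Double KD and SIRT1 KD libraries lay above all control libraries, and double KD replicate 2 was nearest to control. No test was run on these ratios, which restate the counts of each gene.

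Other lysosomal membrane proteins were read from a list of 41 genes of glycoproteins, adaptors, transporters and channels, of which 40 were tested. CD68, the other, was at 0 to 3.2 normalised counts. In SIRT1 KD cells 10 of the 40 rose and 3 fell, with a median log2 fold change of 0.11, beside 28.6% of all genes called, 12.9% higher and 15.7% lower, and a median of -0.0018. TMEM192, a lysosomal membrane protein, averaged 1582 ± 113 normalised counts in SIRT1 KD cells and 1036 ± 28.2 in control cells (log2 fold change 0.61, limma adjusted p = 5.5e-06). The histidine and peptide transporter SLC15A4 rose by 0.57 (adjusted p = 1.0e-05), while SLC37A3 fell by 0.34 (adjusted p = 0.00151) and TMEM106B, a membrane protein tied to lysosome size and transport, by 0.52 (adjusted p = 0.0117). The TMEM106B call was lost with no filter (adjusted p = 0.0514) and on the authors' deposited log2 ratios (0.0521). Without double KD replicate 2 in the fit 16 rose and 4 fell, beside 7017 of 18112 genes called, 3328 higher and 3689 lower.

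In double KD cells 12 of the 40 rose and 6 fell, with a median of 0.08, beside 34.2% of all genes called, 16.7% higher and 17.5% lower, and a median of 0.0057. With double KD replicate 2 left out 12 rose and 7 fell, with a median of 0.11. That fit called 7070 of 18112 genes in double KD cells, 3453 higher and 3617 lower. SLC46A3 was at 109 ± 8.53 normalised counts in double KD cells and 38.1 ± 4.93 in control cells (log2 fold change 1.49, limma adjusted p = 5.0e-07), and the amino acid transporter SLC36A1 rose by 0.72 (adjusted p = 3.6e-06). LAPTM5 was at 409.6 ± 20.2 in double KD cells against 721 ± 35.8 in control cells (-0.81, adjusted p = 1.3e-07), and LAMP3 at 10.7, 8.2 and 34.0 in double KD libraries against 73.7, 60.7 and 65.6 in control (-2.12, adjusted p = 4.4e-04). In IGF2BP2 KD cells 4 rose and 4 fell, with a median of 0.03, beside 16.3% of all genes called, 6.86% higher and 9.39% lower, and a median of -0.0037. There CLCN6, a chloride-proton exchanger of late endosomes, was at 937 ± 63.3 normalised counts in IGF2BP2 KD cells against 671 ± 34.6 in control (0.48, adjusted p = 1.8e-04). GLMP rose by 0.40 (adjusted p = 0.00142), and the amino acid transporter SLC36A4 and LAPTM5 fell by 0.41 (adjusted p = 0.00459) and 0.33 (adjusted p = 0.00486). Without double KD replicate 2 in the fit 8 rose and 9 fell in IGF2BP2 KD cells. That fit called 5028 of 18112 genes there, 2284 higher and 2744 lower.

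**Figure D5:**
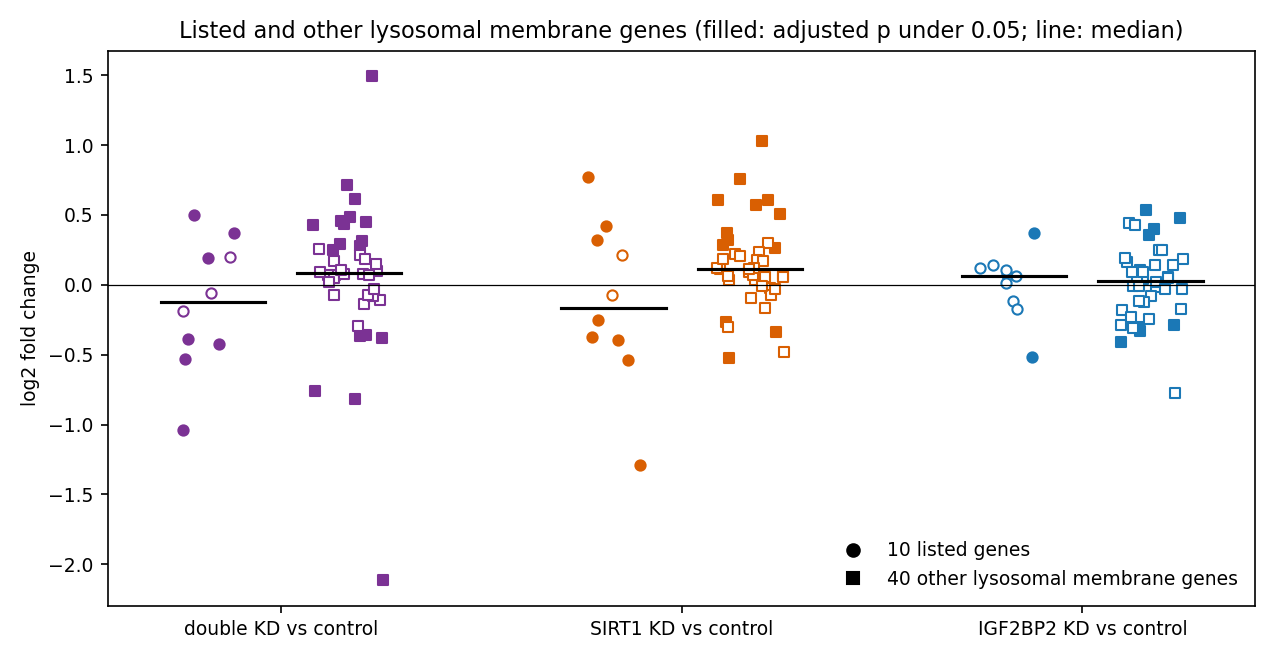
Log2 fold change against control of the 10 genes (circles) and of 40 other lysosomal membrane genes (squares) in double KD, SIRT1 KD and IGF2BP2 KD cells, filled for adjusted p under 0.05, with a line at each median. The medians are -0.12 and 0.08 in double KD, -0.16 and 0.11 in SIRT1 KD and 0.07 and 0.03 in IGF2BP2 KD cells.

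Of the transcription factors that bind the CLEAR element, TFEB was the one called against control, in SIRT1 KD cells. TFEB averaged 361 ± 58.1 normalised counts in double KD, 257 ± 22.9 in SIRT1 KD and 423 ± 29.5 in IGF2BP2 KD cells, against 346 ± 20.6 in control (SD, n = 3 each). TFEB fell in SIRT1 KD cells (log2 fold change -0.43, limma adjusted p = 0.00679) and was not called in double KD (0.05, adjusted p = 0.766) or IGF2BP2 KD cells (0.29, adjusted p = 0.0870). Double KD cells had more of it than SIRT1 KD cells (0.48, adjusted p = 0.00419). TFE3 was not called against control in double KD (-0.11, adjusted p = 0.240), SIRT1 KD (-0.11, adjusted p = 0.255) or IGF2BP2 KD cells (-0.15, adjusted p = 0.159), and neither was MITF (-0.31, -0.36 and -0.04 in the same order). TFEC was at 0 to 4.5 normalised counts and was not tested. Beside the fall of TFEB in SIRT1 KD cells, the genes with the E-box letters shown above had log2 fold changes of -1.29 (LAMP1), 0.32 (CLCN7) and 0.21 (MCOLN1), and the part of TFEB in these was not tested.

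For the 3 genes with the largest changes against control, the most similar profiles were sought among 10475 protein-coding genes with a mean of at least 100 normalised counts. Likeness was the root mean square difference of log2 values from the control mean over the 12 libraries, so 0 is an identical profile. The nearest to LAMP1 were TGFBI (0.0685), ARHGEF12 (0.0916) and SORT1 (0.0923), with log2 fold changes in SIRT1 KD cells of -1.29, -1.24 and -1.37. The nearest to SLC17A5 were KLF6 (0.0513), CELF1 (0.0899) and RRAGD (0.0961), at 0.75, 0.70 and 0.85. The nearest to OSTM1 were CHN1 (0.120), FKBP5 (0.124) and GINS1 (0.126), at -0.45, -0.52 and -0.48. The points share the libraries and their scaling. These genes were picked for likeness over the same libraries, so their fold changes resemble those of the member by construction.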

How the data were processed

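Per the labels' protocols, 1 µg of total RNA per library went into an NEB Ultra II kit. Per the submitters' processing notes the tools were CASAVA, STAR and DESeq2 (versions absent) and the build GRCh38.p13. No source used here gives the annotation or the strand setting, and overlapping genes cannot be told apart. The authors deposited, under named columns, a signal: gene counts scaled by each library's size factor. All values (100%) were whole multiples of the library's step within 0.001 reads. The authors also deposited log2 ratios of each library to control. A table whose 12 columns have no names was not used. Column codes of the main table were matched to groups by their letters, with SIRT1 KD by elimination, and each column of ratios fitted its own library over 11493 genes (SD of the log2 difference at most 5.2e-04, against at least 0.131 for any other).

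Tests used limma 3.58.1 (R 4.3.3) and values of log2(normalised count + 1), with trend and robust variances, 4 group means, 12 libraries and 6 comparisons. Genes were kept by edgeR's filterByExpr (minimum count 10), which left 17576. A call is a Benjamini-Hochberg adjusted p under 0.05 over all of them. The pseudocount understates changes of low genes. The planned test for raw counts gave way to limma because the named columns are scaled, and edgeR 4.0.16 (quasi-likelihood, TMM) and DESeq2 1.42.0 on recovered reads were alternatives, among 22. The procedure was tested on simulated data. Named genes are the 10 members, the knockdown targets, the MiT/TFE factors, up to 2 other lysosomal membrane genes per direction and comparison by adjusted p, and the 3 most similar genes for each of 3 members. The members, lists and 3′ UTR words were chosen with earlier results of these data known.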

Additional observations from a re-analysis of the deposited data

Results flagged for a closer look

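OSTM1, the partner subunit of CLC-7, is listed because of how cells with and without the IGF2BP2 hairpin differed. The difference was larger among cells with the SIRT1 hairpin than among those without it. Double KD cells lay above SIRT1 KD cells by 0.91 on the log2 scale and IGF2BP2 KD cells above control by 0.37, and the difference between these, tested as an interaction, was 0.54 (limma adjusted p = 0.0463). The 3 double KD libraries were all above the 3 SIRT1 KD libraries, and the 3 IGF2BP2 KD libraries all above the 3 control libraries. SIRT1 counts were lower in every double KD than in every SIRT1 KD library, which the interaction does not allow for. Over 21 alternatives the interaction kept its sign, at 0.44 to 0.63, with adjusted p of 0.00512 to 0.149, and 13 of them did not call it. The cause was not tested.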

How the results depend on the processing

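Under 22 alternatives (21 for the interaction, which cannot be had with only the groups compared), 20 of the 27 called values of the 10 genes stayed called in all of them, 7 lost the call in at least 1, and 0 changed sign. Of the 33 other values 9 were called somewhere. The number of the 10 genes called was 6 to 9 in SIRT1 KD cells, 5 to 8 in double KD cells, 4 to 5 for double KD against SIRT1 KD and 4 to 5 for double KD against IGF2BP2 KD. In IGF2BP2 KD cells the count of 2 became 4 with only the groups compared, and 1 to 3 with a library left out. The interaction count of 1 became 0 with no filter, without the variance trend and robust settings and on the deposited log2 ratios, 2 with DESeq2, and 0 to 2 with a library left out. The cause was not tested.

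Values that changed sign were small and uncalled. For SCARB2 the interaction was -0.0063 with edgeR, -0.0032 with DESeq2, -0.056 with upper-quartile scaling and -0.075 to 0.088 with a library left out, and double KD against IGF2BP2 KD was then -0.15 to 0.014. For MCOLN1 double KD against SIRT1 KD was 0.0034 on the deposited ratios and -0.059 to 0.020 with a library left out, IGF2BP2 KD against control was then -0.033 to 0.045 and the interaction -0.075 to 0.023. For OSTM1 double KD against IGF2BP2 KD was -0.013 with edgeR and with DESeq2, -0.051 with upper-quartile scaling and -0.097 to 0.064 with a library left out.

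Replicate numbers showed no clear pairing: over 18 same-numbered pairs the correlation of deviations from the group means was -0.19 to 0.0996. These values do not show that pairing is absent. With a replicate block 5098 genes were called in SIRT1 KD cells, against 5030 without it, and 457 against 503 for the interaction. With a replicate block, the interaction count was 0 (OSTM1 adjusted p = 0.0541), CLCN7 in double KD cells lost its call (adjusted p = 0.0501) and SCARB2 in the same cells gained a call (0.0255).

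Over all genes, counts called moved most with only the groups compared: 7794 against 5030 in SIRT1 KD, 5116 against 2857 in IGF2BP2 KD, 2214 against 3980 for double KD against SIRT1 KD and 3641 against 5550 for double KD against IGF2BP2 KD. In IGF2BP2 KD cells they were 1881, 1860.0 and 1901 without control replicate 2, control replicate 3 or IGF2BP2 KD replicate 3. For the interaction 503 became 926 with DESeq2, 135 without trend and robust settings, 91 on the deposited ratios and 116 to 1765 with a library left out. The 10 genes had 283 reads or more per library, and counting error limits OSTM1, MCOLN1 and CTNS, those with the fewest, most. With no filter the median of all genes in double KD cells was -0.10.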
